A study of Mus musculus with 26 samples.

Results

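Integrins are paired adhesion receptors, each made of 1 alpha and 1 beta chain, that leukocytes use to hold on to other cells and to matrix. The genes described here are 10 integrin chains known from leukocytes, taken by mouse symbol from the 54146 gene identifiers of the count files: the alpha chains Itgam, Itgax, Itgal, Itgae, Itga4, Itga1 and Itga2 and the beta chains Itgb2, Itgb7 and Itgb1. All 10 were found, each under a single identifier, and 9 passed the filter on low counts and were tested. Itga2 did not pass.

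RNA was measured in a mouse model of acute myeloid leukemia. Lineage-negative bone marrow cells had received retroviruses for MLL-AF9 (MA9), a fusion oncogene, in both groups, together with either SETDB1, a histone H3 lysine 9 methyltransferase, in MA9+SETDB1 or the empty MSCVpuro vector (EV) in MA9+EV. Both groups grew for 8 to 12 weeks with IL-3 and SCF and were selected with puromycin for about 3 to 6 weeks. Each group had 3 poly-A RNA-seq libraries, called biological replicates by the series design. Separate transductions or cultures are not named in the labels, so the p-values measure only the spread between these libraries, which may be partly technical. Neither age nor strain of the mice is stated in the labels.

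Gene counts summed to between 18070482 and 22561757 per library. Setdb1 was at 105, 108 and 109 CPM in MA9+EV and at 475, 605 and 607 CPM in MA9+SETDB1 (replicates 1, 2 and 3; CPM, counts per 1000000 of the scaled library). Replicate 1 stood apart in both groups: log2 levels of tested genes differed between replicates 2 and 3 with a root mean square of 0.283 in MA9+EV and 0.3 in MA9+SETDB1, and between replicate 1 and the others by 0.677 to 0.782. The 5 general leukocyte genes Ptprc, Spi1, Cd53, Laptm5 and Coro1a, checked against the labelled cell type, were detected in both groups. Their summed level was between 2292 and 2444 CPM in MA9+EV libraries and between 5156 and 8173 CPM in MA9+SETDB1 libraries. Cd53, Laptm5 and Coro1a were called higher and Spi1 was not called, while Ptprc, which encodes CD45, was called lower and averaged 370 CPM with the empty vector and 105 CPM with SETDB1.

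As background, the beta 2 chain pairs with the alpha L chain (LFA-1), the alpha M chain (Mac-1) or the alpha X chain, and its counter-receptors include the ICAM proteins. The alpha 4 chain pairs with beta 1 or beta 7 and binds VCAM-1, fibronectin and, with beta 7, the gut addressin MAdCAM-1. The alpha E chain pairs with beta 7 and binds E-cadherin, and the alpha 1 and alpha 2 chains pair with beta 1 as collagen receptors. Itgb7 is known in lymphocytes and in mast cell progenitors, Itgam in granulocytes and monocytes, and Itgax in dendritic cells and macrophages.

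Promoter windows from RefSeq (GRCm38.p6, 250 bases before to 50 after a transcript start) were found for 7 of the 10 genes, and 5 of them are printed, for genes with each of the responses described below. Itgb7, Itgax and Itgam were higher in every MA9+SETDB1 library, Itga4 overlapped between the groups, and Itga1 was lower. Windows are written 5' to 3' on the gene's strand, and capitals mark matches to 3 motifs searched on both strands. For ETS factors the letters searched were GGAAGT. For GATA factors they were AGATAA, and for RUNX factors TGTGGT. The 3 motifs do not overlap one another in these windows. On the minus strand lie the Itgb7 window, chr15:102231886-102232185, and the Itga1 window, chr13:115101915-115102214. On the plus strand lie those of Itgax (chr7:128129300-128129599), Itgam (chr7:128062390-128062689) and Itga4 (chr2:79255176-79255475).
Itgb7: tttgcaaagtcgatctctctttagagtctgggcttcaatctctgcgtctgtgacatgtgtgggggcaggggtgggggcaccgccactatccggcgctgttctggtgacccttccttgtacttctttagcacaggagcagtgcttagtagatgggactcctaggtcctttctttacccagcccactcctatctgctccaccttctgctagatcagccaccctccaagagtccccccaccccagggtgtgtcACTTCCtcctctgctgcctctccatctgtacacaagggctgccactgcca
Itgax: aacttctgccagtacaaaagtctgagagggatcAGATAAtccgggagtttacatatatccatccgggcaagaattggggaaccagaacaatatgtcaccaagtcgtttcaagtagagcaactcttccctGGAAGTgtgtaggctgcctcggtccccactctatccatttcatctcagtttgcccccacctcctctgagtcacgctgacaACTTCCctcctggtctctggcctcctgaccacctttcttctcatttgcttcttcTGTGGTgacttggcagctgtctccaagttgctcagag
Itgam: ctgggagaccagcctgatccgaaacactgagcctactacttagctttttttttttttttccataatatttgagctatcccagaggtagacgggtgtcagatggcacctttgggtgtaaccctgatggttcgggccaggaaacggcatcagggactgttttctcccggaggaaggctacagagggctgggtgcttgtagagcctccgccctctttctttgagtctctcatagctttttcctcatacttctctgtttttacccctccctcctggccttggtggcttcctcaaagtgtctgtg
Itga4: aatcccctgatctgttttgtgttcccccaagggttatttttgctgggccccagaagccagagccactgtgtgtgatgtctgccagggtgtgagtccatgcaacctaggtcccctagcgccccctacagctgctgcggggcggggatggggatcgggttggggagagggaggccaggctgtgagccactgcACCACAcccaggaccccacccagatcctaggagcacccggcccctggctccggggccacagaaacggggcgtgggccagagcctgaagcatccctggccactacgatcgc
Itga1: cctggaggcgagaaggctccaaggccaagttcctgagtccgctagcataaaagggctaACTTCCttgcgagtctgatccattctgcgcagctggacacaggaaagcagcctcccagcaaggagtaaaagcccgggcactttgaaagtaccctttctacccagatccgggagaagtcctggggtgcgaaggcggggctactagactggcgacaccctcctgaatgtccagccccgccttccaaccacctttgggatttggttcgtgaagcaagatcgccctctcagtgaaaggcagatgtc
The Itgax window held GGAAGT at bases 130 to 135 and, on the other strand, 210 to 215, as well as AGATAA at 34 to 39 and TGTGGT at 264 to 269. In Itgb7 a GGAAGT match on the other strand covered bases 251 to 256, starting at the transcript start. This start is internal to the gene: the window ends at 102232185, and the Itgb7 span on this minus strand reaches 102233405. Itga4 held TGTGGT on the other strand at bases 191 to 196. Itga1 held GGAAGT on the other strand at bases 59 to 64, and the Itgam window held none of the 3 motifs. GGAAGT occurred in 3 of the 7 windows and in 23.8% of 32851 windows of the same length, AGATAA in 1 of 7 against 11.2%, and TGTGGT in 2 of 7 against 16.8%. These matches are a description of letters and do not show binding.

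Of the 9 tested genes, 6 were higher in MA9+SETDB1 and 1 was lower (edgeR quasi-likelihood test, Benjamini-Hochberg adjusted p under 0.05 over all 12986 tested genes). Over all tested genes 27.4% were higher and 26.2% were lower, 53.5% in either direction. The median log2 fold change was 1.42 over the 9 genes and -0.01 over all tested genes. Libraries of the 2 groups did not overlap for 7 of the 9, against 64.6% of all tested genes. The rises covered all of the tested beta 2 family (Itgb2, Itgal, Itgam and Itgax) and the beta chains Itgb7 and Itgb1, and the fall was that of Itga1. Itgax and Itga1 passed the low-count filter only through the group where each was high. Their calls could hardly have gone the other way.

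**Figure D1:**
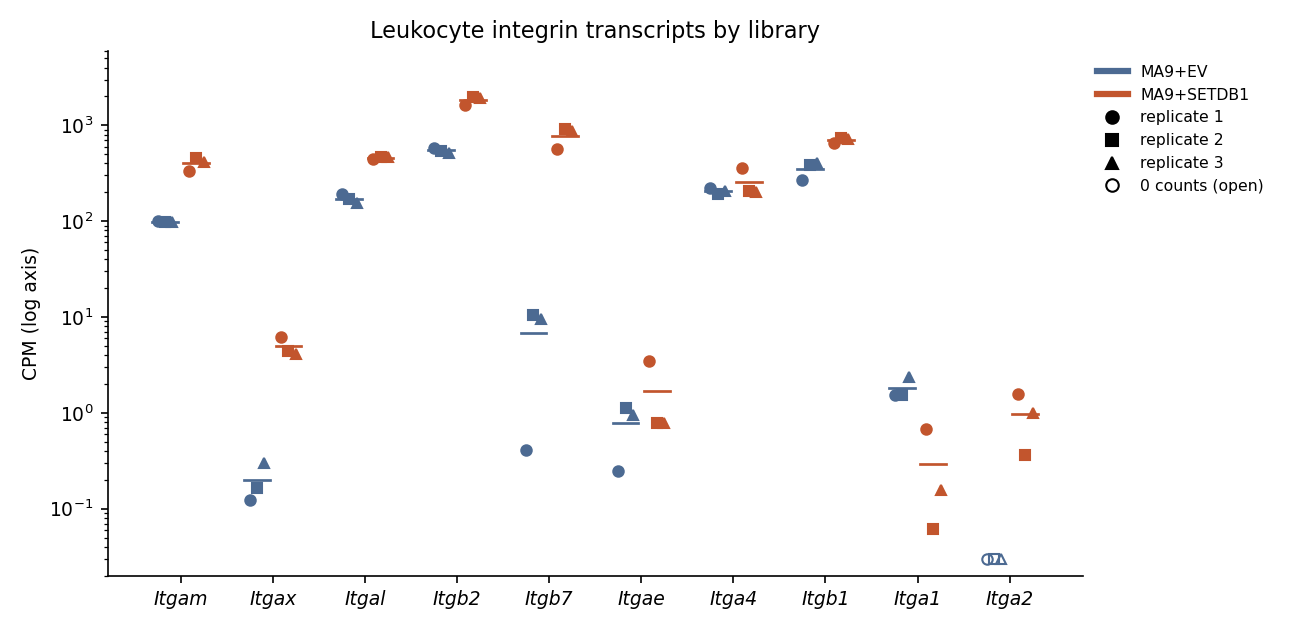
Levels of the 10 leukocyte integrin genes in each library as CPM on a log axis, MA9+EV in blue and MA9+SETDB1 in orange, with replicates as symbols and the group mean as a line. Open symbols at the bottom stand for 0 counts (Itga2 in MA9+EV). Itgb7 shows the widest gap among the tested genes, with MA9+EV replicate 1 below the other 2 libraries of its group.

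The beta 2 chain gene and the alpha partner genes Itgal, Itgam and Itgax were higher together. Itgb2 (ENSMUSG00000000290.13, GRCm38 chromosome 10, 77530329 to 77565708), the common beta chain, was at 581, 546 and 516 CPM in MA9+EV replicates 1, 2 and 3 and at 1626, 1987 and 1951 CPM in the MA9+SETDB1 libraries, in the same order. The lowest MA9+SETDB1 library thus lay well above the highest MA9+EV library, and the means differed 3.39-fold. The fitted log2 fold change was 1.76 ± 0.14 (SE; adjusted p = 0.000107, edgeR).

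Itgal (ENSMUSG00000030830.18, chromosome 7, 127296139 to 127335137), the alpha chain of LFA-1, was at 194, 170 and 153 CPM in the MA9+EV libraries and 441, 469 and 473 CPM in MA9+SETDB1. The groups did not overlap, and the log2 fold change was 1.42 ± 0.12 (SE; adjusted p = 0.000143, edgeR). Itgam (ENSMUSG00000030786.18, chromosome 7, 128062640 to 128118491), the CD11b gene, was nearly level across MA9+EV at 101, 97.1 and 97.0 CPM, and reached 334, 461 and 419 CPM in MA9+SETDB1. Its log2 fold change was 2.04 ± 0.14 (SE; adjusted p = 5.88e-05, edgeR). Both genes were thus readily detected in MA9+EV and were higher in all 3 MA9+SETDB1 libraries.

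Itgax (ENSMUSG00000030789.9, chromosome 7, 128129526 to 128150657), the CD11c gene, started near the detection limit. It had 3, 4 and 6 counts in MA9+EV and 111, 73 and 80 counts in MA9+SETDB1, or 0.197 ± 0.0932 and 4.94 ± 1.11 CPM (mean ± SD, n = 3). This was the second largest fold among the tested leukocyte integrins (log2 fold change 4.63 ± 0.42 SE, adjusted p = 0.000177, edgeR). Itgax had too few MA9+EV counts to pass the low-count filter there. It was tested only through MA9+SETDB1, so its call could hardly be anything but higher. Itgax lies 11034 bases from Itgam. On its far side, 23275 bases away, lies Itgad, the alpha D gene, which had 15, 8 and 9 counts in MA9+EV and 2, 1 and 2 in MA9+SETDB1 and was not tested. Itgam and Itgax thus rose, while the few Itgad counts were fewer in every MA9+SETDB1 library.

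Several of these chains serve as lineage markers, so the lists of other blood cell genes were set beside them. In bulk libraries fewer cells of a type and less RNA per cell cannot be told apart. Of 13 neutrophil markers 11 were lower and 2 higher, and their summed level was between 14340 and 18910 CPM in MA9+EV libraries and between 500.2 and 629 CPM in MA9+SETDB1 libraries. Of 10 tested monocyte and macrophage markers, 6 were lower and 3 higher, with sums of 2480 to 4246 and 792 to 1808 CPM. The higher ones were Ly6g and Cxcr2 on the neutrophil list and Csf1r, Adgre1 and Cd68 on the monocyte and macrophage list. Itgam and Itgb2 thus rose with these, while most markers of the neutrophil and monocyte lists fell. For Itgax, the dendritic cell markers summed to between 0.413 and 0.655 CPM in MA9+EV and between 5.82 and 6.77 CPM in MA9+SETDB1. Of those 9 markers, Xcr1, Siglech, Cd209a and Batf3 had 0 counts in all 6 libraries, Clec9a and H2-Aa had 0 in MA9+SETDB1, and Zbtb46 had 0 in MA9+EV. The 2 dendritic markers that could be tested were both higher: Cd74 averaged 0.372 CPM with the empty vector and 4.38 CPM with SETDB1, and Zbtb46 went from 0 to 96 counts over the group. Both had too few MA9+EV counts (25 and 0 over the group) to pass the low-count filter there. They were tested only through MA9+SETDB1, so these calls could hardly be anything but higher. The part of any such cells in the levels was not tested.

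Itgb7 (ENSMUSG00000001281.10, chromosome 15, 102215994 to 102233405), the beta 7 chain, had the largest change of the tested leukocyte integrins. It had 10, 252 and 189 counts in MA9+EV, or 0.413, 10.4 and 9.52 CPM, and reached 566, 905 and 870 CPM in MA9+SETDB1. MA9+EV replicate 1 lay far below the other 2 MA9+EV libraries, yet even the lowest MA9+SETDB1 library was far above all of them. Means of 6.80 ± 5.55 and 780 ± 187 CPM (SD, n = 3) corresponded to a fitted change, on the log2 scale, of 6.85 ± 1.01 (SE; adjusted p = 0.00141, edgeR). Without MA9+EV replicate 1 it was 6.28 (edgeR adjusted p = 8.27e-05), and with limma-voom in place of edgeR 7.82 (adjusted p = 0.000585).

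Markers of several blood lineages moved with Itgb7, those of mast cells and basophils among them. The 10 mast cell markers summed to between 161 and 202 CPM in MA9+EV and between 6360 and 6667 CPM in MA9+SETDB1, with 7 of 8 tested higher and Kit lower. The 7 basophil markers, 3 of them also on the mast cell list, summed to 26.2 to 34.6 and 8939 to 10090 CPM, and all were higher. All 8 eosinophil markers (4.84 to 7.14 CPM summed in MA9+EV, 217 to 224 in MA9+SETDB1) and all 8 erythroid markers (0.743 to 1.51 and 1037 to 1100 CPM) were higher too. Markers with few or no MA9+EV counts could pass the low-count filter only through MA9+SETDB1, so their calls could hardly be anything but higher. Mcpt4 had 0 counts in all 6 libraries, and Tpsb2, Tpsab1 and Il4 had 0 in MA9+EV. Of 10 T and NK cell markers, Cd3e, Cd4, Cd8a, Zap70, Ncr1 and Klrb1c had 0 counts in all 6 libraries, and the list summed to at most 7.17 CPM in any library. Cd3g went from 0 to 98 counts over the group and was not tested, and Lck, the only tested gene of that list, was lower (6.55 and 3.48 CPM on average). The part of any of these cell types in the Itgb7 level was not tested.

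Itgae (ENSMUSG00000005947.11, chromosome 11, 73090505 to 73147449), the alpha E chain that pairs with beta 7, stayed at low counts. It was at 0.248, 1.12 and 0.957 CPM in the MA9+EV libraries and 3.47, 0.791 and 0.779 CPM in MA9+SETDB1. A single library, MA9+SETDB1 replicate 1, was high, the groups overlapped, and the call was not made (log2 fold change 1.12 ± 0.78 SE, adjusted p = 0.265, edgeR). Over replicates 2 and 3 of each group alone, an alternative chosen after seeing the data, the direction turned (-0.40, edgeR adjusted p = 0.343). Haspin, a kinase gene lying inside the Itgae span, had 38.4 ± 5.96 and 19.7 ± 5.68 CPM (SD, n = 3). Whether the counting used strand is not stated, so reads where such genes overlap are uncertain.

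Itga4 (ENSMUSG00000027009.18, chromosome 2, 79255426 to 79333114), the alpha 4 chain and the other partner of beta 7, was abundant in both groups. The MA9+EV libraries held 222, 191 and 204 CPM, and those of MA9+SETDB1 held 358, 205 and 202 CPM. MA9+SETDB1 replicates 2 and 3 fell within the MA9+EV range, and replicate 1 alone was above it. No difference was called (log2 fold change 0.31 ± 0.24 SE, adjusted p = 0.302, edgeR), and without MA9+SETDB1 replicate 1 the fitted value was -0.003 (edgeR adjusted p = 0.983). Cerkl, which overlaps the end of Itga4, was at 0.233 ± 0.0489 and 1.20 ± 0.0798 CPM (SD, n = 3).

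Itgb1 (ENSMUSG00000025809.15, chromosome 8, 128685654 to 128733579), the beta 1 chain shared by many integrins, was at 270, 390 and 401 CPM in the MA9+EV libraries and 648, 733 and 712 CPM in MA9+SETDB1. The groups did not overlap although MA9+EV replicate 1 was low. The rise was close to 2-fold (log2 fold change 0.98 ± 0.18 SE, adjusted p = 0.00326, edgeR).

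Both collagen receptor alpha chains were near the detection limit. Itga1 (ENSMUSG00000042284.10, chromosome 13, 114958079 to 115101964), the alpha 1 chain, had 37, 37 and 47 counts in MA9+EV and 12, 1 and 3 in MA9+SETDB1. The groups did not overlap, and the log2 fold change was -2.58 ± 0.69 (SE; adjusted p = 0.0177, edgeR). Itga1 had too few MA9+SETDB1 counts to pass the low-count filter there, so its call could hardly be anything but lower. This call was lost when MA9+EV replicate 3 (edgeR adjusted p = 0.0633) or MA9+SETDB1 replicate 3 (0.0708) was left out, and with replicates 2 and 3 of each group summed (0.115). Without MA9+SETDB1 replicate 1, the library with 12 counts, the log2 fold change was -3.93 (edgeR adjusted p = 0.00154). Pelo, a ribosome rescue factor gene inside the Itga1 span, was at 10.6 ± 0.612 and 8.62 ± 0.290 CPM (SD, n = 3).

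Itga2 (ENSMUSG00000015533.9, chromosome 13, 114833081 to 114932100), the alpha 2 chain, lies 25978 bases from Itga1. It had 0 counts in all MA9+EV libraries and 28, 6 and 19 counts in MA9+SETDB1. Set against 3 counts over the whole MA9+EV group, taken as an upper limit for 0 counts, the level pooled over the MA9+SETDB1 libraries was 22.5-fold higher. This is a lower bound for counting error only. It failed the low-count filter. In the fit without that filter its edgeR adjusted p was 0.00135, and DESeq2 gave an adjusted p of 2.25e-05. With 0 counts in MA9+EV, Itga2 could hardly come out of these fits as anything but higher. A lncRNA gene, Gm34845, overlaps it in the annotation. The 2 neighbouring collagen receptor genes thus differed in opposite directions at counts of 47 or fewer per library.

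**Figure D2:**
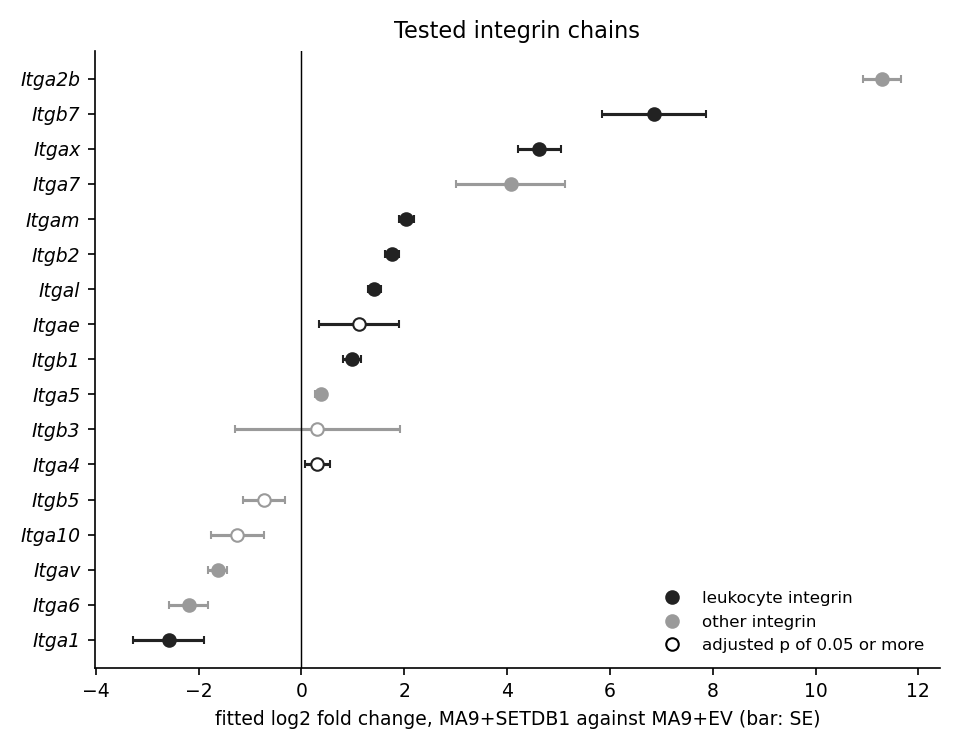
Fitted log2 fold changes of the tested integrin chains, MA9+SETDB1 against MA9+EV, with bars for the SE. The leukocyte integrins are in black, other integrins in grey, with open symbols for an adjusted p of 0.05 or more. Itga2b and Itgb7 lie at the top at 11.30 and 6.85, and Itga1 lies at the bottom at -2.58.

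Ratios of counts between 2 chains within a library remove its depth, and transcript length cancels when the groups are compared, whereas the ratio itself is not corrected for length. The 3 ratios form a family in which 3 libraries against 3 cannot give a 2-sided exact permutation p under 0.1. All 3 gave that exact permutation p of 0.1, and Benjamini-Hochberg adjustment leaves it at 0.1. Itgb7 reads per Itgb1 read were 0.00153, 0.0268 and 0.0237 in MA9+EV and 0.874, 1.24 and 1.22 in MA9+SETDB1. The mean log2 ratio of these beta chains went from -6.63 ± 2.3 to 0.13 ± 0.28 (SD, n = 3), a difference of 6.77 (exact permutation p = 0.1). Without correction for length, the beta chains that can pair with alpha 4 gave similar read counts in MA9+SETDB1, and in MA9+EV nearly all such reads came from Itgb1.

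Itgam reads per Itgal read were 0.521, 0.573 and 0.632 in MA9+EV and 0.759, 0.982 and 0.886 in MA9+SETDB1, a difference in mean log2 ratio of 0.60 (exact permutation p = 0.1). This shift was small beside that of the beta chains, and the groups did not overlap. Itgae reads per Itgb7 read went from 0.6, 0.107 and 0.1005 to 0.00613, 0.000874 and 0.000895, a difference of -6.78 in the mean log2 ratio (exact permutation p = 0.1). Read counts of alpha E therefore did not follow those of its beta partner.

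**Figure D3:**
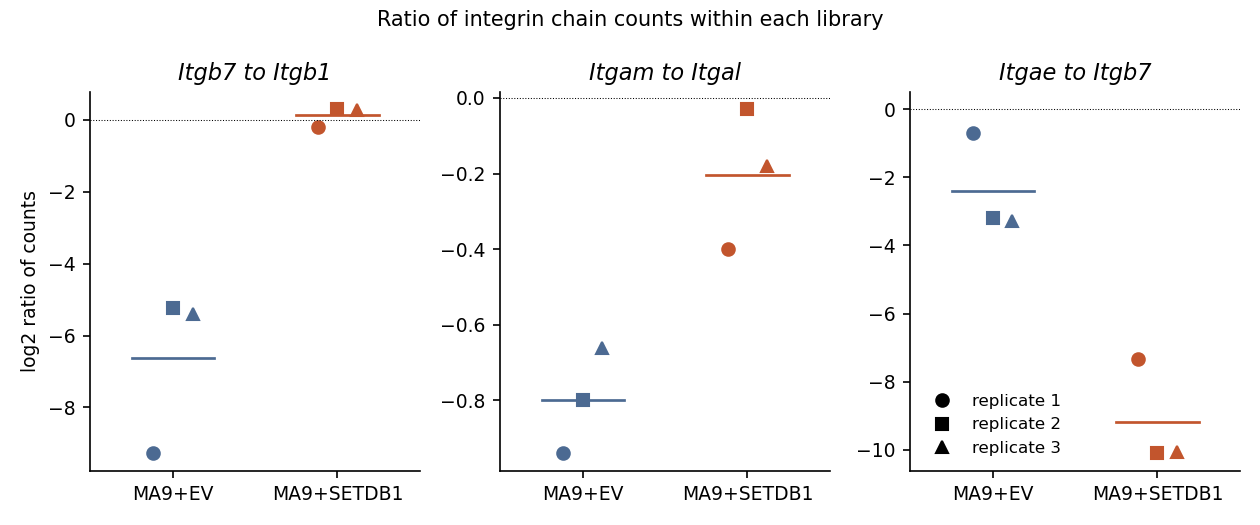
Log2 ratio of counts of 2 integrin chains in each library, by group, with the mean as a line and a dotted line at equal counts. The Itgb7 to Itgb1 ratio is near 0 in MA9+SETDB1 and between -9.28 and -5.22 in MA9+EV.

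Of 17 other integrin genes, the integrin-like Itgbl1 included, 8 were tested, 3 of them higher and 2 lower, with a median log2 fold change of -0.21. The called share, 62.5% of 8, was near the 53.5% called over all tested genes. Of the 3 higher genes, Itga2b and Itga7 had too few MA9+EV counts to pass the low-count filter there. Their calls could hardly be anything but higher. Itga2b, the platelet alpha IIb chain, was the highest in fold, at 644, 518 and 532 CPM in MA9+SETDB1 from 8, 6 and 1 counts in MA9+EV. Its beta partner Itgb3, named after its values were seen, had 159, 0 and 0 counts in MA9+SETDB1 and 29, 70 and 61 in MA9+EV. The alpha IIb and beta 3 genes were thus not both detected in MA9+SETDB1 replicates 2 and 3. Itgb3 was not called over all libraries (edgeR adjusted p = 0.882). Without MA9+SETDB1 replicate 1 it was lower (log2 fold change -8.63, edgeR adjusted p = 0.0032).

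Itgav, the alpha V chain of vitronectin receptors, fell from 90.3 ± 19.1 to 29.2 ± 3.21 CPM (log2 fold change -1.63 ± 0.18 SE, adjusted p = 0.000446, edgeR). Itga6, a laminin receptor chain, fell from 105 ± 48.5 to 22.9 ± 2.45 CPM (log2 fold change -2.19 ± 0.38 SE, adjusted p = 0.00282, edgeR), with MA9+EV replicate 1 at 48.9 CPM and the other 2 above 131 CPM. Itga5, the fibronectin receptor chain, rose by a log2 fold change of 0.37 (edgeR adjusted p = 0.0308) and Itga7 by 4.07 (edgeR adjusted p = 0.016). The Itga5 call was lost in 7 of 15 alternatives and that of Itga7 in 4. The edgeR adjusted p of Itga5 was 0.11 without MA9+EV replicate 2, 0.0999 with MA9+EV replicate 3 left out, and 0.123 and 0.0899 with MA9+SETDB1 replicate 2 or 3 left out. For Itga7 it was 0.051, 0.0615 and 0.05 (not under the threshold) with MA9+EV replicate 1, MA9+EV replicate 3 or MA9+SETDB1 replicate 3 left out. Its log2 fold change was 5.54 without MA9+EV replicate 2. With either replicate 3 left out, 1 other integrin was called higher in place of 3. Itga10 was not called (log2 fold change -1.25, edgeR adjusted p = 0.0793). With the replicate number as a block Itga10 and Itgb5 were called lower too (edgeR adjusted p = 0.0279 and 0.00467), which made 4 lower in place of 2. With replicates 2 and 3 of each group summed neither was called (0.217 and 0.324). Leaving out MA9+SETDB1 replicate 1 made 5 lower.

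Of 31 genes that switch integrins on or tie them to actin, 26 were tested, 14 being higher and 4 lower, with a median log2 fold change of 0.58. Over all tested genes 27.4% were higher and 26.2% lower. With replicates 2 and 3 of each group summed, 8 of these genes were called higher in place of 14. Fyb, the adaptor ADAP, went from 12.6, 5.02 and 4.53 CPM to 337, 345 and 330 CPM, with no overlap but a high MA9+EV replicate 1 (log2 fold change 5.50 ± 0.44 SE, adjusted p = 0.000102, edgeR). Its partner Skap2 fell, its mean being 187 ± 10.5 CPM with the empty vector and 53.4 ± 8.76 CPM with SETDB1 (log2 fold change -1.81 ± 0.14 SE, adjusted p = 9.09e-05, edgeR). The related adaptor Skap1, chosen after its values were seen, had 0 counts in MA9+EV and 73, 213 and 203 in MA9+SETDB1, which is at least 207.5-fold higher when MA9+EV is set to 3 counts over the group. In these adaptor genes Skap2 was the lower and Skap1 the higher one in MA9+SETDB1.

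Rassf5, the RAP1 effector RAPL, rose from 95.8 ± 11.4 to 203 ± 10.8 CPM, and the kinase gene Ptk2 (FAK) from 3.20 ± 1.11 to 30.5 ± 6.11 CPM (edgeR adjusted p = 0.000411 and 0.000234). Tln2, a talin, fell from 24.7 ± 1.83 to 2.098 ± 0.880 CPM, and Cyth1, which encodes cytohesin-1, a regulator of LFA-1 adhesion, from 43.1 ± 2.26 to 17.1 ± 3.02 CPM (edgeR adjusted p = 0.000164 and 0.000502). Among genes chosen after their values were seen, the RAP1 genes Rap1a and Rap1b rose by log2 fold changes of 1.42 and 1.06 (edgeR adjusted p = 0.00055 and 0.00611). The Rap1b call was lost with replicates 2 and 3 of each group summed (0.0679). Rasgrp2, a RAP1 activator also chosen in this way, fell by 1.71 on the log2 scale (edgeR adjusted p = 0.00142). The leukocyte kindlin Fermt3 was at 400 ± 60.5 and 483 ± 21.3 CPM and was not called over all libraries (edgeR adjusted p = 0.135), though it was without MA9+EV replicate 1 (0.0171). Tln1, the main leukocyte talin, stood at 664 ± 158 and 1070 ± 119 CPM (log2 fold change 0.69, edgeR adjusted p = 0.0222). That call was lost when MA9+EV replicate 2 (0.0882), MA9+EV replicate 3 (0.0857) or MA9+SETDB1 replicate 2 (0.0565) was left out, and with replicates 2 and 3 summed (0.173).

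Genes for ligands of integrins showed wide changes in both directions, with a median absolute log2 fold change of 5.64 against 0.62 over all tested genes. Of 25 listed, 16 were tested, 8 being higher and 7 lower, 93.8% in all against 53.5% over all tested genes. Many of the called genes passed the low-count filter only through the group where they were high. Cdh1, Lama5, Lamc1 and Icam4 did so through MA9+SETDB1, and Fn1, Vcam1 and Col4a2 through MA9+EV. Their calls could hardly have gone the other way, so this share and the median are given as description only. E-cadherin, the ligand of the alpha E beta 7 pair, is encoded by Cdh1, which rose from 0.206, 0.415 and 0.403 CPM to 332, 220 and 202 CPM (log2 fold change 9.51 ± 0.35 SE, adjusted p = 4.64e-06, edgeR). Cdh1, tested only through MA9+SETDB1, and Itgb7 were thus both far higher in that group, while Itgae was not called. The laminin gene Lama5 rose from 0.368 ± 0.189 to 700 ± 74.3 CPM, and Lamc1, for another laminin chain, from 0.476 ± 0.107 to 54.1 ± 8.996 CPM (edgeR adjusted p = 2.43e-06 and 4.32e-06).

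The genes for fibronectin, VCAM-1 and MAdCAM-1, ligands of the alpha 4 pairs, were lower or had no counts. Spp1, for another alpha 4 ligand and named after its values were seen, went the other way. Its log2 fold change was 3.28 (edgeR adjusted p = 0.00621), and its libraries are described under the other observations. The fibronectin gene Fn1 fell from 9.72 ± 0.134 to 0.188 ± 0.0681 CPM (log2 fold change -5.65 ± 0.32 SE, adjusted p = 2.6e-05, edgeR). Vcam1, named after its values were seen, fell from 37.0 ± 18.2 to 0.748 ± 0.516 CPM (log2 fold change -5.62 ± 0.57 SE, adjusted p = 0.000281, edgeR), and Madcam1 had 0 counts in all 6 libraries. Thrombospondin 1, encoded by Thbs1, fell from 2523, 7493 and 7150 CPM to 2.80, 3.35 and 2.80 CPM, and the collagen IV gene Col4a2 from 12.7 ± 1.54 to 0.406 ± 0.0890 CPM (edgeR adjusted p = 2.3e-05 and 2.48e-05). Of the beta 2 counter-receptor genes, also chosen after their values were seen, Icam1 rose from 15.2 ± 4.31 to 69.1 ± 21.1 CPM and Icam4 from 0.408 ± 0.274 to 28.3 ± 0.733 CPM (edgeR adjusted p = 0.00124 and 6.08e-05), the latter by a log2 fold change of 6.09, or 6.77 without MA9+EV replicate 2. Icam2 fell from 70.2 ± 2.33 to 45.7 ± 2.32 CPM (edgeR adjusted p = 0.00163), a call lost with replicates 2 and 3 of each group summed (0.0523). Stromal markers, as a check on matrix-producing cells, summed to between 1.08 and 1.61 CPM in MA9+EV and between 35.9 and 83.1 CPM in MA9+SETDB1, and of their 7 genes Pdgfrb made up 54.1 CPM of the mean. Col1a1, Col1a2 and Col3a1 had 7, 1 and 3 counts over the MA9+SETDB1 group. The part of such cells in the ligand levels was not tested.

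**Figure D4:**
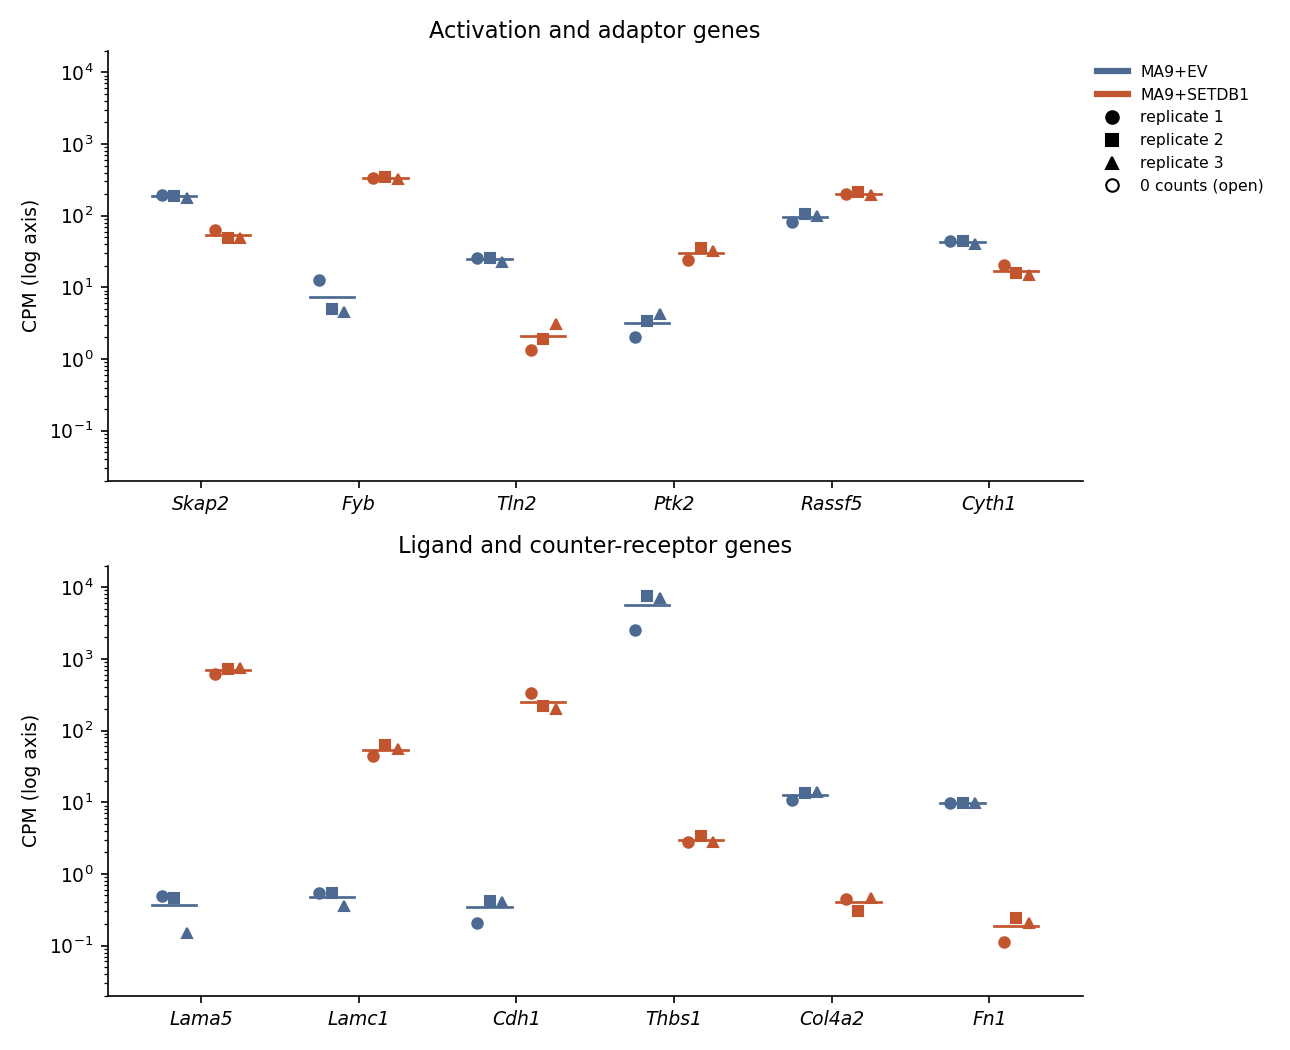
Levels in each library, as CPM on a log axis, of the 6 tested activation genes (top) and 6 tested ligand genes (bottom) with the smallest p, MA9+EV in blue and MA9+SETDB1 in orange, with replicates as symbols and the group mean as a line. No gene shown has overlapping groups, and Cdh1, Lama5, Lamc1 and Thbs1 differ by more than 100-fold between the means. The choice by smallest p favours genes without overlap, and 64.6% of all tested genes had none.

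The spread within groups was also compared with that of other genes. After group means were removed from log2 CPM, the genes of at least 10 CPM most like each of 4 integrins over the 6 libraries were sought among 8810 genes. The nearest to Itgam was Pias4, with a root mean square difference of 0.0136, followed by Pigt and Rad23b. For Itgb2 they were Nop2 (0.0109), Dcps and Ecd, and for Itga4 Slc16a13 (0.00453), Atxn7l1 and Rev1. For Itgb7, with MA9+EV replicate 1 low, the nearest was Cyp11a1 at 0.101, and the next were Gcnt4 and Hmox1 at 0.283 and 0.311. Gcnt4 averaged 0.0579 CPM in MA9+SETDB1, below the 0.1 CPM added before logs were taken. These genes are the closest of 8810 over only 6 libraries, so near matches can arise by chance, which was not tested.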

How the data were processed

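Of 26 samples in the series, the 6 RNA-seq libraries were used, grouped by their titles into 3 MA9+EV and 3 MA9+SETDB1 libraries; the 20 chromatin samples were not analysed here. Each library has a deposited file of raw counts per gene, in whole reads, made by the authors without normalization as far as the files show. The submitters' processing notes name GRCm38 and, without role or order, STAR 2.6.0c, HTSeq 0.11.0 and DESeq2 3.8 among other tools. Libraries were strand-specific, per the labels' protocols, but no source says whether the counting used strand. The 5 summary lines, which took 24.6% to 26.3% of the entries, were left out. Reads aligned to more than 1 place are among them.

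Symbols came from a table of identifiers (52480 matched with version, 1599 without, 67 unmatched), and coordinates and promoter windows from RefSeq on GRCm38.p6, matched by symbol. Genes were filtered with filterByExpr, scaled by TMM and put through the quasi-likelihood test of edgeR 4.0.16 under R 4.3.3 (alternatives used DESeq2 1.42.0 and limma 3.58.1), with Benjamini-Hochberg adjustment over 12986 genes and a threshold of 0.05. CPM uses TMM-scaled library sizes. SEs were derived from the F statistic. Transcript lengths were not used, so levels of different genes are not compared beyond their read counts. The code was tested on simulated data. Count ratios carry a pseudocount of 0.5 on the log2 scale.

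The members and lists were chosen with earlier results of these data known. Named genes are the 10 members, Setdb1, up to 6 tested genes per list with the smallest p, and 3 like-spread genes for each of 4 members; others are marked as chosen after their values were seen, apart from overlapping or neighbouring genes and list markers. Deviations from group means of same-numbered libraries correlated at 0.257, 0.196 and 0.169 for replicates 1, 2 and 3. Replicates 2 and 3 of opposite groups correlated alike (0.203 and 0.177). These values set replicate 1 apart and do not show that replicates 2 and 3 are paired by number. The main fit and the permutation tests took the libraries as unpaired, and the replicate number entered only as a block in an alternative. Replicates 2 and 3 of a group differed by more than sampling noise and were kept apart. Floors for 0 counts cover counting error only, whereas SDs and SEs include the spread between libraries. Alternatives were other scalings, filters and tests, the replicate block, summed or left-out libraries and another pseudocount.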

Additional observations from a re-analysis of the deposited data

How the results depend on the processing

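The 6 higher leukocyte integrins were called higher in each of the 15 alternatives; the call on Itga1 was not. With replicates 2 and 3 of each group summed, 0 leukocyte integrins were lower, 1 other integrin and 8 activation genes were higher, and 2292 and 1928 of all genes were higher and lower. Leaving out 1 library gave 6 to 7 higher and 0 to 1 lower leukocyte integrins, 1 to 3 higher and 2 to 5 lower other integrins, 2992 to 4231 higher and 2727 to 4063 lower genes, and log2 ratio differences of 5.44 to 7.47 (Itgb7 to Itgb1), 0.51 to 0.70 (Itgam to Itgal) and -7.70 to -5.93 (Itgae to Itgb7). DESeq2 called 5 other integrins higher. With the replicate number as a block 4 other integrins were lower, the 6 leukocyte integrins stayed higher and Itga1 lower. Over replicates 2 and 3 of each group alone, chosen after seeing the data, 5 other integrins and 5285 of all genes were lower. Over replicates 2 and 3 alone the direction reversed for Itgae (-0.395), Nop2 (0.099) and Itgb3 (-8.889), and Itgb3 also reversed with limma-voom (-3.52) and with the block (-2.017). With 1 library left out, log2 fold changes ran from -0.003 to 0.461 for Itga4, from -8.626 to 0.905 for Itgb3 and from -0.110 to 0.052 for Nop2. They turned for all 3 genes when MA9+SETDB1 replicate 1 was left out, and for Itgb3 (-0.010) also without the first MA9+EV library. The cause was not tested. With 3 libraries a group the exact permutation test could not pass, and low counts in 1 or both groups limit Itgax, Itgae, Itga1 and Itga2.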

Other observations

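Itgb5 and Parvb, picked after their values were seen, separated replicate 1 from replicates 2 and 3 in both groups. Itgb5, the beta 5 chain, was at 20.6, 40.1 and 40.3 CPM in MA9+EV replicates 1, 2 and 3, and MA9+SETDB1 had 10.6, 25.6 and 24.7 CPM. Replicate 1 was the low one in each group. Parvb, which encodes a parvin that links integrins to actin, was at 5.29, 21.3 and 21.6 CPM in MA9+EV, and MA9+SETDB1 had 39.9, 31.7 and 31.1 CPM. Here replicate 1 was low in MA9+EV and high in MA9+SETDB1. Spp1, which encodes osteopontin, a ligand of alpha V and alpha 4 integrins, rose from 43.0, 33.6 and 30.0 CPM to 72.1, 475 and 485 CPM (edgeR adjusted p = 0.00621). That call was lost with replicates 2 and 3 of each group summed (0.0565), and replicate 1 stood far below the other libraries of MA9+SETDB1 alone. The part of replicate 1's other properties in these values was not tested.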
